A study of Mus musculus with 12 samples.

Results

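Unpolarized (M0) macrophages of mice lacking miR-210 (KO) were compared by RNA sequencing with those of wild-type mice (WT). The comparison takes 6 of the 12 libraries of the series, 3 KO and 3 WT, and was read across every gene with enough counts, 14089 of the 56941 genes in the table. The mice were C57Bl/6J. The KO allele arose when a miR-210 floxed line was crossed to a Gata-1 Cre line, in which the Gata-1 promoter drives the recombinase, and both KO and WT animals came from breeding heterozygous carriers of the deletion. Monocytes were purified magnetically from bone marrow by removal of other cells and were cultured for 7 days with serum and L929-conditioned medium, a source of the macrophage growth factor M-CSF. M0 wells were then kept for a further 72 h without IL-4, and the M2 wells used for comparison received 20 ng/mL IL-4 over that time. Neither the labels nor the methods give the ages of the mice, and nothing ties a library to a particular animal, so all p-values measure the spread between these libraries. Libraries are named by the numbers of their columns, which match no sample name. The labels give each of the 4 groups its own batch, so batch cannot be told apart from genotype, nor from the IL-4 state where M2 is compared.

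miR-210 is a small RNA of the response to low oxygen. HIF-1 induces its gene, and the mature microRNA, loaded on an Argonaute protein, pairs through its seed with the 3′ untranslated region of target mRNAs and lowers their stability or translation. Its best known targets act in mitochondrial iron-sulfur cluster assembly and respiration, and in macrophages it has been studied as a regulator of inflammatory signalling. The sequences of both arms, from RefSeq (GRCm38.p6), are shown with the seed, bases 2 to 8, in capitals. The seed of the 3p arm defines the matches counted later, and matches of the 5p seed were not counted.
mmu-miR-210-3p: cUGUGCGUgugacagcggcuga
mmu-miR-210-5p: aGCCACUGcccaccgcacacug

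The hairpin gene Mir210 lies at chr7:140801297-140801406 on the minus strand (GRCm39). Its raw counts, in the order of libraries 1 to 3, were 1, 3 and 5 in the WT libraries and 0, 0 and 0 in the KO libraries. It was counted in each WT library and in no KO library, but at these counts a library with 0 allows up to 3 counts, or 2.95e-05% to 3.37e-05% of the library, so the counts set only a limit. Libraries of fragmented long RNA do not measure the mature microRNA. The 6 libraries held 7930525 to 10167695 counts, of which 96.2% to 96.8% fell on protein-coding genes and 0.894% to 0.968% on mitochondrial genes. The 22 macrophage identity genes, among them Csf1r, Adgre1 and Lyz2, had summed normalised counts (raw counts scaled by the TMM method) of 194154 to 197740.0 in WT and 182976 to 204680.0 in KO, and 0 of the 20 tested were called by edgeR (2 by DESeq2, 4 at an unadjusted p under 0.05). Markers of other cells summed to far less: 11.5 to 31.4 in WT and 15.2 to 22.1 in KO for neutrophils with Ly6g at 0, and 33.4 to 55.5 in WT and 19.9 to 40.1 in KO for T and NK cells with Cd3e and Nkg7 at 0. The erythroid and megakaryocyte list summed to 3338 to 4062 in WT and 4129 to 4979.7 in KO, nearly all of it Pf4, a chemokine that macrophages also make, and the fibroblast and stromal list to 36.2 to 43.3 in WT and 48.7 to 67.3 in KO. Both of these sums were higher in each KO library than in each WT library, and their part in the results was not tested. The endothelial list was lower in each KO library, at 362 to 471 in WT and 336 to 338 in KO. Most of that sum was Kdr (log2 fold change -0.53); of the other 3 members tested Cdh5 had -0.31, Pecam1 0.87 and Vwf 0.19, and edgeR called 0 of the 4 (1 by DESeq2, 2 at an unadjusted p under 0.05). In bulk RNA, fewer cells of a type and less RNA per cell cannot be told apart.

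A gene was called where edgeR's quasi-likelihood test gave a Benjamini-Hochberg adjusted p under 0.05 over all genes tested and the change exceeded 1.2-fold. By this rule 65 genes were called, 0.461% of those tested, 31 higher in KO (0.220%) and 34 lower (0.241%). DESeq2's Wald test with the same limits called 207 genes (1.47%), which included all 65. The median log2 fold change of all genes, KO against WT, was 0.000496, and 79.3% of genes lay within 1.2-fold of no change, against a median standard error of 0.13. In 2024 genes (14.4%) the 3 KO libraries lay wholly above or wholly below the 3 WT libraries, 1000 above (7.10%) and 1024 below (7.27%), and all 65 called genes were among them. Counts of list members wholly above or wholly below WT, given later, are to be read beside these shares. The lists were chosen with earlier results of these data known, so such counts describe them and are not independent evidence of a direction. The smallest called change was 0.42 on the log2 scale, and 27 of the 118 genes with a change over 1 on that scale were called. On a principal component analysis of the 500 most variable genes, the first component (54.0% of the variance) placed the WT libraries at -7.76, -1.86 and -5.84 and the KO libraries at 5.22, 4.07 and 6.17. WT library 2 thus lay nearest to KO among the WT libraries. The fit without it called 302 genes of 14360 tested (2.10%), 142 higher (0.989%) and 160 lower (1.11%), and this set held all 65. Leaving out WT library 1 or 3 gave 22 and 20 calls, and leaving out KO library 1, 2 or 3 gave 28, 105 and 32.

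**Figure D1:**
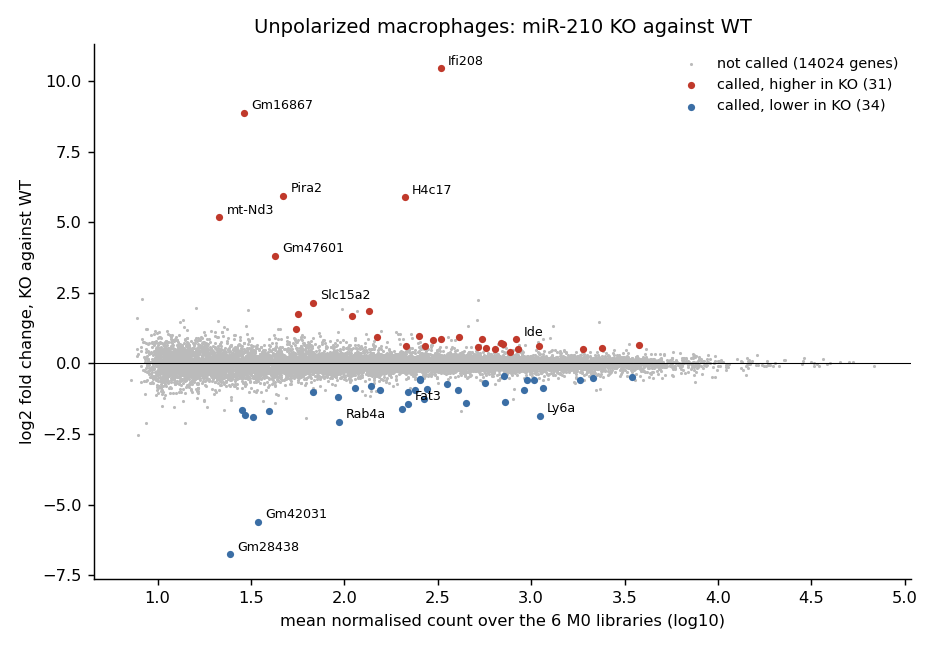
Log2 fold change of KO against WT in M0 (y axis) for the 14089 genes tested, against the mean normalised count over the 6 libraries on a log10 axis (x axis); the 65 called genes are coloured. Most genes sit near 0, and the fitted values of the called genes run from -6.77 to 10.45; for genes with almost no counts in 1 group these depend on the prior count that edgeR adds.

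Of the 65 genes, 18 were called whichever of the 6 libraries was left out, 11 of them higher in KO and 7 lower. A further 28 were called in 2 of those 6 fits and 7 in only 1. All 65 were called without WT library 2, while 44 calls were lost without WT library 1, 45 without WT library 3, and 37, 10 and 36 without KO library 1, 2 and 3. The 18 include several genes whose reads resemble those of a near-identical copy. For these, the share of a gene's 50-base stretches found in transcripts of any other gene is given. The counting could move reads between copies. At most 2 genes, those with the most shared stretches, are named beside a share. Sums over named genes can therefore leave out further copies.

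Ifi208 encodes a member of the interferon-activated p200 (PYHIN) family, which includes DNA sensors. Its normalised counts were 0, 0 and 0.960 in the WT libraries and 621, 611 and 739 in the KO libraries. A single raw count was seen in 1 WT library and none in the others, so the KO level was at least 219-fold higher, taking 3 counts a library as the floor (edgeR adjusted p = 5.6e-09). Its transcripts share 27.2% of their stretches with other genes, chiefly Ifi213 and Ifi206. Both of those neighbours had lower counts in KO, with log2 fold changes of -0.49 and -0.48 that were not called by edgeR (adjusted p = 0.152 and 0.159). The 3 genes together summed to 6189 ± 1164 in WT and 5074 ± 444 in KO (mean ± SD, n = 3).

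Pira2 encodes an activating paired immunoglobulin-like receptor. Its normalised counts were 2.41, 0.983 and 0.960 in the WT libraries and 88.6, 83.9 and 105 in the KO libraries, at least 30.8-fold higher in KO on the same floor (edgeR adjusted p = 1.0e-05). It shares 93.2% of its stretches with other genes, chiefly Pira1 and Pira12. Pira1 read 148, 121 and 140.2 in the WT libraries and 184, 155 and 152 in the KO libraries, groups that did not overlap but were not called (0.26 on the log2 scale, edgeR adjusted p = 0.57). The 3 genes together were 141 ± 15.5 in WT and 265 ± 16.5 in KO (mean ± SD, n = 3).

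H4c17, a histone H4 gene, had normalised counts of 10.9, 3.93 and 6.72 in WT and 423, 336 and 483 in KO (log2 fold change 5.87 ± 0.25, edgeR adjusted p = 3.7e-07). Each KO library was far above each WT library. It shares 89.8% of its stretches with other genes, chiefly H4c18 and H4c9, whose log2 fold changes were -0.51 and -0.51. The 3 genes together were 797 ± 61.3 in WT and 970.4 ± 165 in KO, ranges that overlap. This sum leaves out the other histone H4 genes.

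A mitochondrial gene and its nuclear copy moved in opposite directions. The complex I subunit mt-Nd3 read 1.21, 0 and 1.92 in WT and 42.2, 36.1 and 47.4 in KO, at least 13.96-fold higher in KO (edgeR adjusted p = 3.3e-04). Gm28438 is a pseudogene on chromosome 1 whose stretches are all shared with other genes, chiefly mt-Nd3 and a further copy. It read 45.9, 50.1 and 49.0 in WT and 0, 0.902 and 0 in KO, at least 16.1-fold lower in KO (edgeR adjusted p = 9.0e-05). The sum of mt-Nd3 and Gm28438 was 49.4 ± 2.03 in WT and 42.2 ± 5.20 in KO. Reads of the pair cannot be told apart where the stretches are shared. Of the 10 mitochondrially encoded genes tested, mt-Nd3 alone was called, and the median log2 fold change was -0.02.

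Gm16867 had normalised counts of 0, 0 and 0 in WT and 69.6, 51.4 and 54.0 in KO, at least 19.4-fold higher (edgeR adjusted p = 2.0e-04). It shares 78.9% of its stretches with other genes, chiefly Gm27177 and Slc25a37. Gm27177 had mean normalised counts of 0 in WT and 0.983 in KO. Slc25a37, the mitochondrial iron importer mitoferrin 1, was far more abundant (2435 in WT and 2711 in KO) and was not called (log2 fold change 0.15, edgeR adjusted p = 0.564). Gm42031, a long noncoding RNA gene on chromosome 8, went the other way, with 60.3, 85.5 and 58.6 in WT and 2.11, 1.80 and 0 in KO, at least 22.7-fold lower (edgeR adjusted p = 1.1e-04). It shares 63.8% with other genes, chiefly Gm43305 and a further copy, and Gm43305 was not called (-0.40 on the log2 scale, edgeR adjusted p = 0.739).

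Among genes with no such copy, the endosomal small GTPase Rab4a, which drives fast recycling of receptors to the surface, had 149.6, 136 and 169 in WT and 27.4, 40.6 and 39.8 in KO (log2 fold change -2.06 ± 0.19, edgeR adjusted p = 2.7e-04). It was lower in each KO library. Of the 27 endosomal Rab genes tested it was the only one called by edgeR, and its paralog Rab4b read 20.5, 20.6 and 26.9 in WT and 20.0, 17.1 and 12.3 in KO (edgeR adjusted p = 0.658). Wdfy1, an endosomal FYVE-domain adaptor linked to Toll-like receptor signalling, had 687, 653 and 607 in WT and 213, 281 and 248 in KO (log2 fold change -1.39 ± 0.11, edgeR adjusted p = 9.1e-05). Fat3, an atypical cadherin, had 308, 355 and 297 in WT and 111, 118 and 124 in KO (log2 fold change -1.44 ± 0.11, edgeR adjusted p = 9.1e-05). Both fell in KO with no overlap between groups.

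Dynlt1b, a light chain of the dynein motor, fell from 377 ± 32.5 to 156 ± 25.8 (mean ± SD, n = 3, log2 fold change -1.28 ± 0.13, edgeR adjusted p = 6.0e-04). It shares 70.6% of its stretches with other genes, chiefly Dynlt1a and Dynlt1c. Neither copy was called (log2 fold changes -0.10 and 0.03), and the 3 genes together were 706 ± 38.2 in WT and 477 ± 66.6 in KO. Dynlt1b lies 8452 bases from Gm64463, a long noncoding RNA gene that fell from 306 ± 25.7 to 99.1 ± 2.88 (log2 fold change -1.63 ± 0.11, edgeR adjusted p = 4.0e-05). A further 2878 bases away stood the pseudogene Tmem181b-ps, with 49.5, 57.0 and 48.0 in WT and 9.49, 15.3 and 16.1 in KO (log2 fold change -1.89 ± 0.26, edgeR adjusted p = 0.00868, lost without WT library 3). It shares 95.8% with other genes, chiefly Gm64463 and Tmem181a. Dynlt1b, Gm64463 and Tmem181b-ps, neighbours on chromosome 17, were all lower in KO. Tmem181a read 366, 371 and 353 in WT and 443, 395 and 421 in KO, wholly above WT but not called (log2 fold change 0.21, edgeR adjusted p = 0.442), and the sum of Tmem181b-ps, Gm64463 and Tmem181a was 721 ± 22.5 in WT and 532 ± 22.9 in KO.

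The remaining genes of the 18 rose in KO. Slc15a2 encodes PEPT2, a transporter that takes up small peptides and bacterial muropeptides, and had 22.9, 23.6 and 28.8 in WT and 88.6, 116 and 129 in KO (log2 fold change 2.14 ± 0.22, edgeR adjusted p = 6.1e-04). The other SLC15 genes tested, Slc15a3 and Slc15a4, were not called (log2 fold changes 0.05 and -0.11, edgeR adjusted p = 0.928 and 0.75). Ide, the metalloprotease that degrades insulin, rose from 595 ± 61.2 to 1071 ± 22.8 (log2 fold change 0.85 ± 0.09, edgeR adjusted p = 9.5e-04). Wwc2, a WW-domain protein of the Hippo pathway, rose from 281 ± 20.3 to 542 ± 47.8 (log2 fold change 0.95 ± 0.10, edgeR adjusted p = 8.8e-04). The long noncoding RNA gene Gm47601 had 4.83, 5.90 and 5.76 in WT and 62.2, 94.7 and 80.5 in KO (log2 fold change 3.81 ± 0.30, edgeR adjusted p = 9.1e-05), and it lies 908284 bases from Lrmda, which also rose.

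G530011O06Rikx, a long noncoding RNA gene on the X chromosome, rose from 58.3 ± 8.67 to 213 ± 50.2 (log2 fold change 1.87 ± 0.20, edgeR adjusted p = 8.3e-04). It shares 32.8% with other genes, chiefly a copy on the Y chromosome and Gm21748. Gm15446 rose from 52.5 ± 6.53 to 169 ± 45.5 (log2 fold change 1.68 ± 0.21, edgeR adjusted p = 0.00377), with 48.6% shared with other genes, chiefly Zfp932. Zfp932 itself was not called (0.09, edgeR adjusted p = 0.924).

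**Figure D2:**
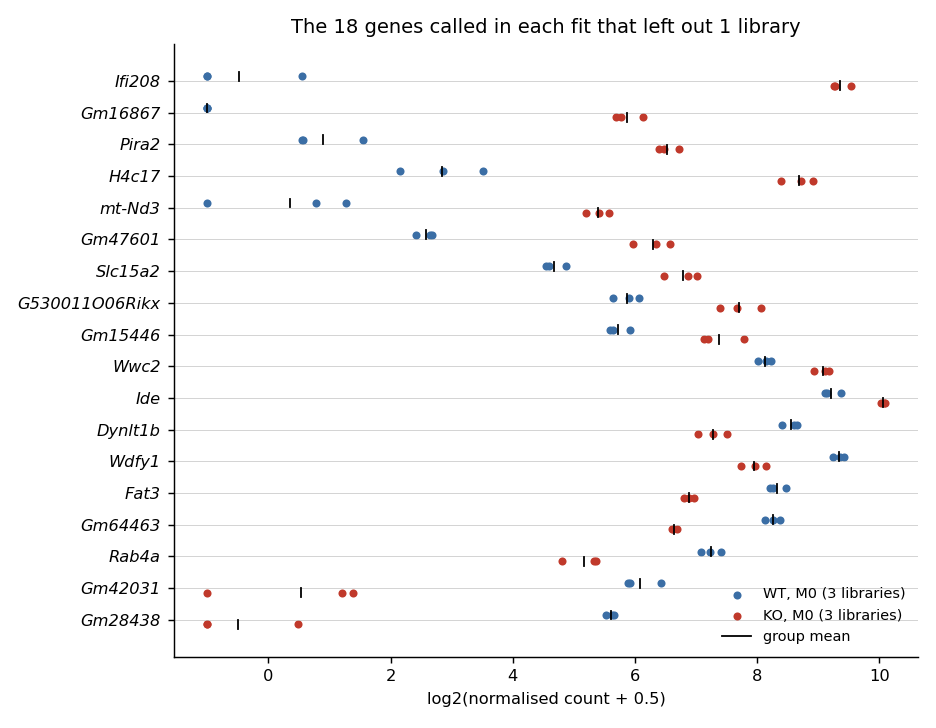
Log2 of the normalised count plus 0.5 (x axis) in each of the 6 M0 libraries for the 18 genes called whichever library was left out (y axis). In each gene the 3 KO points and the 3 WT points are apart, as in all 65 called genes, so the gap adds nothing to the call. Ide had means of 595 in WT and 1071 in KO, and Ifi208 of 0.320 and 657.

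Of the 34 genes that fell, 6 stood on the lists of type I interferon-stimulated genes or of immunity GTPases. Type I interferon acts through a receptor and STAT transcription factors to induce antiviral genes, and interferon-gamma induces many of the same genes together with GTPases that attack the vacuoles of pathogens. Of 50 type I interferon-stimulated genes tested, 3 fell, 1 rose and 26 had every KO library below every WT library (52.0%, against 7.27% of all genes). The median log2 fold change was -0.42, and 48 of the 50 values were negative. The paper had named some of these genes as lower from the same samples, so the counts are not independent evidence of a fall. Of 15 guanylate-binding proteins and immunity GTPases tested, 3 fell, none rose by edgeR, and 9 lay wholly below WT; the median was -0.69 and all 15 values were negative. Of 12 tested p200 family genes, Ifi208 rose, none fell by edgeR, and 6 lay wholly below WT, with a median of -0.43.

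These calls depended on single libraries. WT library 2 had the lowest interferon-gene levels of the WT libraries. Relative to the WT mean, the median log2 level of the GTPases was 0.26, -0.34 and 0.09 in the WT libraries and -0.72, -0.64 and -0.55 in the KO libraries, and that of the type I genes 0.17, -0.25 and 0.08 in the WT libraries and -0.40, -0.45 and -0.31 in the KO libraries. Each KO library lay below WT library 2 on both lists, and on the p200 list KO library 3 at -0.27 lay level with WT library 2 at -0.28. Without WT library 2, edgeR called 33 type I genes, 11 GTPases and 9 p200 genes lower in KO, beside 1.11% of all genes in that fit. That fit leaves out the WT library with the lowest interferon-gene levels, so these counts are not separate support for a fall. Without WT library 1, edgeR called 0, 0 and 0 lower, and DESeq2 on all 6 libraries called 19, 6 and 6. The list medians stayed negative without any 1 library (-0.48 to -0.31, -0.73 to -0.54 and -0.55 to -0.30).

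Gbp5, a GTPase that promotes inflammasome activity, fell, with 147, 133 and 108 in WT and 53.8, 55.9 and 59.7 in KO (log2 fold change -1.19 ± 0.17, edgeR adjusted p = 0.0124, lost without WT library 1). Gbp9 had 631, 392.2 and 574 in WT and 247, 287 and 299 in KO (log2 fold change -0.93 ± 0.16, edgeR adjusted p = 0.0288), and it was called only without WT library 2 or KO library 2. Iigp1, an immunity-related GTPase that coats the vacuole of Toxoplasma, had 1383, 611 and 1125 in WT and 385, 339 and 484 in KO (log2 fold change -1.37 ± 0.24, edgeR adjusted p = 0.0356) and was called only without WT library 2. In Gbp9 and Iigp1, WT library 2 was the lowest of the WT libraries but stayed above each KO library.

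On chromosome 18, Iigp1 has 2 called neighbours. Gm5970, a processed pseudogene 152765 bases away, fell from 176 ± 6.29 to 102 ± 6.94 (log2 fold change -0.79 ± 0.12, edgeR adjusted p = 0.0197), and Iigp1c, 8867 bases from Gm5970, fell from 1255 ± 134 to 828 ± 7.64 (log2 fold change -0.60 ± 0.09, edgeR adjusted p = 0.0176). Gvin3, a pseudogene of the very large interferon-inducible GTPases, had 1547, 883 and 1185 in WT and 557, 594 and 724 in KO (log2 fold change -0.94 ± 0.17, edgeR adjusted p = 0.0427). It shares 45.6% of its stretches with other genes, chiefly Gm57206 and Gvin-ps3. The abundant members Irgm1 and Ifi47 were not called (log2 fold changes -0.31 and -0.42, edgeR adjusted p = 0.414 and 0.255), and neither were Gbp2 and Gbp4, at -0.86 and -2.11 (edgeR adjusted p = 0.121 and 0.0515, DESeq2 adjusted p = 0.00531 and 0.0247).

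Of the type I genes, Isg15, a ubiquitin-like modifier, had 403, 303 and 382 in WT and 161, 205 and 217 in KO (log2 fold change -0.89 ± 0.14, edgeR adjusted p = 0.0176). Each KO library was below each WT library. Ifi44, an antiviral gene, had 1834, 1101 and 1560.0 in WT and 802, 747 and 895 in KO (log2 fold change -0.88 ± 0.16, edgeR adjusted p = 0.0357), and Samd9l, an antiviral and growth-restricting protein, had 4319.9, 3628 and 4143 in WT and 2887, 2863 and 2973 in KO (log2 fold change -0.47 ± 0.09, edgeR adjusted p = 0.0427). Both were called only without WT library 2 among the fits that left out a library. Near Samd9l on chromosome 6, the unannotated transcript Gm43197 fell from 446 ± 77.4 to 265 ± 19.5 (log2 fold change -0.74 ± 0.12, edgeR adjusted p = 0.0277) and the long noncoding RNA Gm20559 from 2193 ± 268 to 1468 ± 82.6 (log2 fold change -0.58 ± 0.10, edgeR adjusted p = 0.0337). Trim30b, of a family of interferon-inducible TRIM proteins, fell from 204 ± 35.8 to 106 ± 8.68 (log2 fold change -0.94 ± 0.15, edgeR adjusted p = 0.0201).

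Ifi27, a mitochondrial protein induced by interferon, was the type I gene that rose, with 168, 172 and 168 in WT and 280.4, 267 and 232 in KO (log2 fold change 0.62 ± 0.11, edgeR adjusted p = 0.0356, called only without WT library 2). Other well known members had values in the other direction that were not called. Ifit1bl1 had a log2 fold change of -1.93 (edgeR adjusted p = 0.0849), Mx1 of -0.92 (adjusted p = 0.0624), Ifit1 of -0.60 (adjusted p = 0.118), Ifit3 of -0.58 (adjusted p = 0.223) and Oas1g of -0.51 (adjusted p = 0.0849). The transcription factor Stat2 had -0.37 (edgeR adjusted p = 0.111) and was called lower by DESeq2 (adjusted p = 0.0164).

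In the p200 family apart from Ifi208, Ifi205 read 243, 112 and 210.2 in WT and 86.4, 65.9 and 102 in KO (log2 fold change -1.14 ± 0.26, edgeR adjusted p = 0.0972). Ifi203, Mndal, Ifi207 and Ifi204 ran from -0.47 to -0.34, with edgeR adjusted p from 0.0949 to 0.402. The family therefore held 1 gene that rose, with its counts near 0 in WT, beside 10 with negative values and 1 further positive value.

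Fewer genes were called on the other immune lists. Of 15 interferon receptors and regulatory factors tested, 0 were called by edgeR or DESeq2, 3 had an unadjusted p under 0.05, and 4 lay wholly below WT, with a median of -0.06. Irf7, the amplifier of the type I response, had a log2 fold change of -0.30 (edgeR adjusted p = 0.529), and Irf8 -0.06. Of 23 class I presentation genes, 0 were called by edgeR or DESeq2 (3 at an unadjusted p under 0.05), and the median was -0.15, with H2-K1 at -0.10 and B2m at -0.07. Of 7 class II genes tested, 0 were called by edgeR or DESeq2 (2 at an unadjusted p under 0.05), 3 lay wholly above WT, and H2-Aa read 0.57 (edgeR adjusted p = 0.362).

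Of 23 Toll-like receptors and adaptors tested, only Tlr9, the endosomal sensor of unmethylated CpG DNA, was called, with 311, 279 and 327 in WT and 198, 215 and 201 in KO (log2 fold change -0.58 ± 0.10, edgeR adjusted p = 0.0342). The other nucleic acid sensors Tlr3 and Tlr8 had log2 fold changes of -0.39 and -0.30 (edgeR adjusted p = 0.077 and 0.142) and KO libraries wholly below WT, while Tlr7 and Tlr13 read -0.12 and 0.02 with overlapping groups. Among the Ly6 surface antigens, 4 were tested and in all 4 the KO libraries lay below WT. Ly6a (Sca-1) had 2577, 850.4 and 1805 in WT and 439, 354 and 658 in KO (log2 fold change -1.85 ± 0.33, edgeR adjusted p = 0.0375), lost without WT 1, WT 3, KO 1 or KO 2, and Ly6e 10978, 7181 and 9582 in WT and 5867, 5296 and 6528 in KO, not called (edgeR adjusted p = 0.0809). Cd59a, the membrane inhibitor of the complement attack complex, fell, with 282, 322 and 336 in WT and 191, 161 and 143 in KO (log2 fold change -0.93 ± 0.12, edgeR adjusted p = 0.00716, lost without WT library 3). Of the other complement genes, C4b read 228, 145 and 214 in WT and 81.2, 100.1 and 117 in KO (edgeR adjusted p = 0.0539), and the abundant C1qb and C1qc lay at -0.08 and -0.07.

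**Figure D3:**
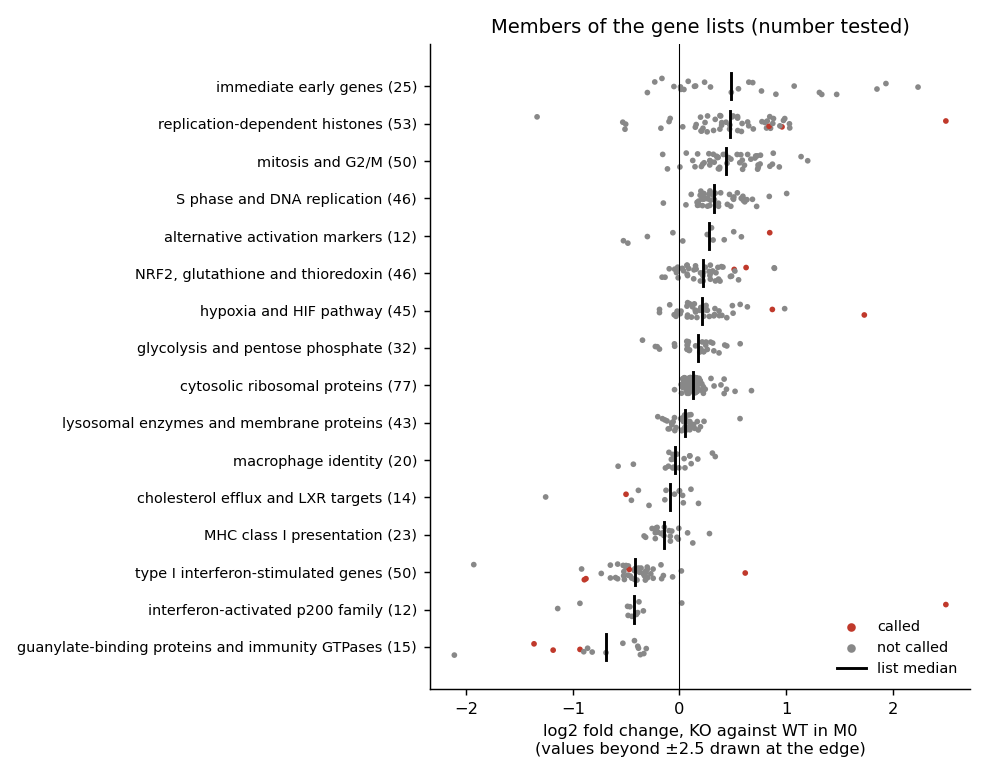
Log2 fold change of KO against WT in M0 (x axis; values beyond 2.5 in either direction are drawn at the edge) for each tested member of the gene lists named on the y axis, with called genes coloured. All 15 GTPases and 48 of 50 type I interferon-stimulated genes lie left of 0, and 46 of 53 histone genes lie right of it.

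Histone genes had mostly positive values. The replication-dependent histones package new DNA and are made almost only in S phase, from mRNAs that end in a stem-loop and carry no poly(A) tail, which ribosomal RNA depletion keeps. Of 53 tested, 3 rose (H4c17, H2bc15 and H1f5) and 0 fell by edgeR. In 34 the KO libraries lay wholly above WT (64.2%, against 7.10% of all genes) and in 3 wholly below. H4c17 and H2bc15 share 89.8% and 86.4% of their stretches with other genes, chiefly histone genes, so the 53 are not all independent members. The median log2 fold change was 0.47 (here and in later lists, the range in parentheses after a median is that without any 1 library: 0.40 to 0.57), and DESeq2 called 17 higher and 1 lower. The median level over the list, relative to the WT mean, was 0.03, 0.11 and -0.11 in the WT libraries and 0.57, 0.29 and 0.60 in the KO libraries. The KO libraries were thus above the WT libraries, with KO library 2 nearest. Without WT library 2, 24 histone genes were called higher and 1 lower, beside 0.989% and 1.11% of all genes in that fit. That fit leaves out the WT library nearest to KO, so these counts are not separate support for a rise. Without WT library 1 or 3, only 1 was called higher.

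H2bc15 had 197, 262 and 182 in WT and 426, 336 and 390.4 in KO (log2 fold change 0.84 ± 0.14, edgeR adjusted p = 0.0285) and the linker histone H1f5 169, 211 and 132 in WT and 373, 279.6 and 346 in KO (log2 fold change 0.96 ± 0.16, edgeR adjusted p = 0.0305). No KO library overlapped a WT library in either, and both were lost without KO 1, KO 3, WT 1 or WT 3. They lie 25760 bases apart in the histone cluster of chromosome 13, with H4c17 another 31863 bases away. H2bc15 shares 86.4% of its stretches with other genes, chiefly H2bc12 and H2bc23, and H2bc12 was not called (log2 fold change 0.98, edgeR adjusted p = 0.176). H3c1, H3c2 and H3c3 had log2 fold changes of 0.82, 1.03 and 0.88 (edgeR adjusted p = 0.0549, 0.105 and 0.107). The most abundant linker histones H1f2 and H1f4 had 0.15 and 0.24, with overlapping groups in which KO library 3 was highest.

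The other cell cycle lists gave 0 edgeR calls, against 20 S phase and 20 mitosis genes at an unadjusted p under 0.05. Of 46 genes of S phase and DNA replication, 45 had positive values, 10 lay wholly above WT, and the median was 0.32 (0.25 to 0.54). Of 50 mitosis and G2/M genes, 48 were positive, 9 lay wholly above WT, and the median was 0.44 (0.31 to 0.74). DESeq2 called 2 and 4 of them higher. WT library 2 stood with the KO libraries here, since the mitosis list read -0.11, 0.41 and -0.27 in the WT libraries and 0.60, 0.61 and 0.19 in the KO libraries. Ccna2, cyclin A2, had 72.4, 143 and 78.7 in WT and 263, 239.9 and 152 in KO (log2 fold change 1.14 ± 0.26, edgeR adjusted p = 0.0949, DESeq2 adjusted p = 8.0e-04). Mcm2, a subunit of the replicative helicase, had 313, 472 and 364 in WT and 654, 543 and 526 in KO (0.58 ± 0.14, edgeR adjusted p = 0.122), and the proliferation marker Mki67 531, 838 and 350.4 in WT and 926, 1024 and 596 in KO (0.57 ± 0.27, edgeR adjusted p = 0.514), where WT library 2 exceeded KO library 3. Without WT library 2, 14 S phase genes and 9 mitosis genes were called higher, beside 0.989% of all genes in that fit. That fit leaves out the WT library nearest to KO, so these counts are not separate support for a rise.

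**Figure D4:**
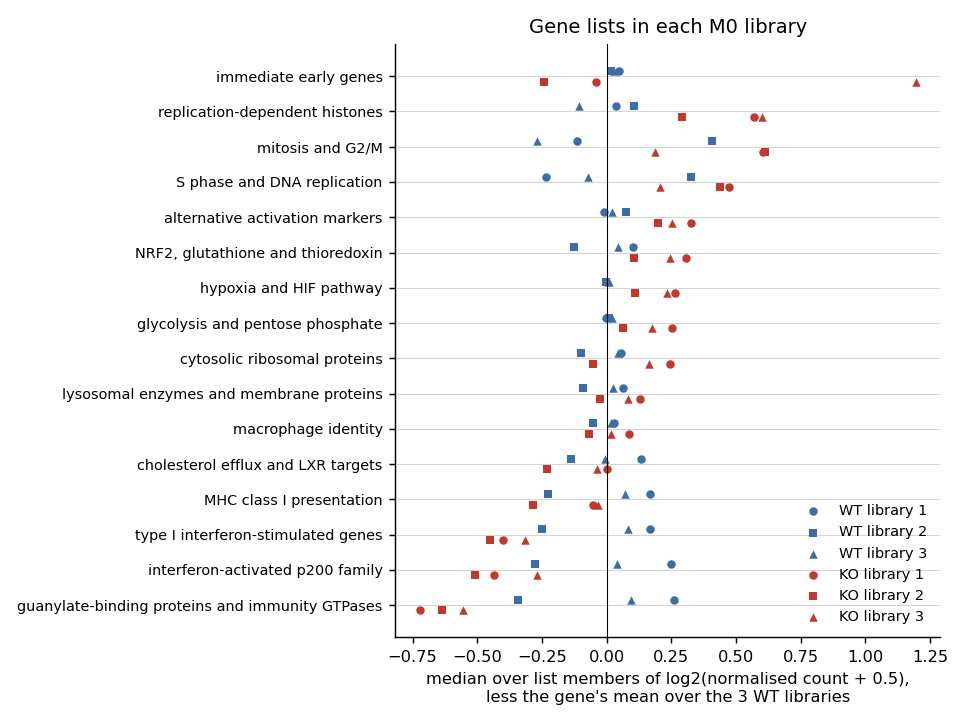
Median over the members of each list of log2(normalised count + 0.5) less the gene's mean over the 3 WT libraries (x axis), for each M0 library. WT library 2 lies between the other WT libraries and the KO libraries on the GTPase and type I interferon lists and among the KO libraries on the mitosis list, and KO library 3 stands alone at 1.19 on the immediate early list.

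The response to low oxygen is where miR-210 itself sits. Of 45 hypoxia and HIF pathway genes tested, 2 rose, 0 fell by edgeR, 19 lay wholly above WT (42.2%, against 7.10% of all genes) and none wholly below. The median log2 fold change was 0.21 (0.17 to 0.26). Egln3 encodes the prolyl hydroxylase PHD3, which marks HIF for destruction and is itself a HIF target, and had 204, 279 and 212 in WT and 455, 405 and 416 in KO (log2 fold change 0.87 ± 0.12, edgeR adjusted p = 0.0104, lost without WT 1 or WT 3). Each KO library was above each WT library. The glucose transporter Slc2a1 had 669.7, 803 and 799 in WT and 1048, 859.7 and 1187 in KO (log2 fold change 0.44 ± 0.12, edgeR adjusted p = 0.177, DESeq2 adjusted p = 0.0466).

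Glycolysis and pentose phosphate genes had 0 edgeR calls among 32 tested (2 by DESeq2, 13 at an unadjusted p under 0.05), 12 wholly above WT and 1 wholly below, and a median of 0.17 (0.13 to 0.22). Pkm read 8569, 8958 and 8927 in WT and 11311, 9499 and 10895 in KO (0.26 ± 0.09, edgeR adjusted p = 0.302) and Gapdh 7008, 6983 and 6997 in WT and 8850.4, 7289.6 and 8195 in KO (0.21 ± 0.09, edgeR adjusted p = 0.436). KO library 2 was the lowest of the KO libraries in both genes and stayed above each WT library.

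The transcription factor NRF2 induces the enzymes that make and recycle glutathione and thioredoxin. Of 46 tested, 2 rose, 0 fell by edgeR, 18 lay wholly above WT and none below, with a median of 0.22 (0.14 to 0.29). Gsr, glutathione reductase, had 946, 785 and 876 in WT and 1468, 1239 and 1312 in KO (log2 fold change 0.63 ± 0.10, edgeR adjusted p = 0.0181), and Txnrd1, thioredoxin reductase, 1677, 1507 and 1500.5 in WT and 2079, 2135 and 2469 in KO (log2 fold change 0.51 ± 0.09, edgeR adjusted p = 0.0375). The groups did not overlap in either gene, and both calls were lost without WT 1, WT 3, KO 1 or KO 3.

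Slc7a11, the cystine importer, had 1259.8, 685 and 711 in WT and 1553, 1624 and 1733 in KO (0.89 ± 0.19, edgeR adjusted p = 0.0764), Gclm 0.49 (edgeR adjusted p = 0.0942, DESeq2 adjusted p = 0.00329) and Srxn1 0.52 (edgeR adjusted p = 0.152, DESeq2 adjusted p = 0.0115). The abundant ferritins Fth1 and Ftl1 read -0.05 and 0.13. Of 17 metallothionein and zinc transport genes tested, Mt2 rose, with 502, 568 and 566 in WT and 939, 697 and 977 in KO (log2 fold change 0.67 ± 0.12, edgeR adjusted p = 0.0431), and Mt1 read 1271, 1174 and 1379 in WT and 1770.1, 1400.0 and 1990.0 in KO without being called (edgeR adjusted p = 0.193).

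Genes of clotting, matrix and repair gave single calls. Among 19 coagulation and plasminogen activation genes tested, 1 rose, 5 lay wholly above WT and none below, and the median was 0.15. Plaur, the receptor of urokinase, had 183, 298 and 253 in WT and 488, 367 and 569 in KO (0.94 ± 0.18, edgeR adjusted p = 0.0515, DESeq2 adjusted p = 6.9e-05), and its ligand Plau 1014, 1398 and 1329.6 in WT and 1838, 1451 and 1525 in KO (0.36 ± 0.13, edgeR adjusted p = 0.331). Among 15 metalloproteinases and inhibitors tested, Mmp14, a membrane-bound collagenase, rose, with 433, 445 and 372 in WT and 626, 634 and 589 in KO (log2 fold change 0.57 ± 0.09, edgeR adjusted p = 0.0277). Mmp8 and Timp3 had log2 fold changes of 0.64 and 1.88 with no overlap between groups but missed the call (edgeR adjusted p = 0.0699 and 0.0923, DESeq2 adjusted p = 8.2e-04 and 0.00318). Mmp12, the macrophage elastase, was more abundant at 6754 ± 512 in WT and 7913 ± 1129.7 in KO and was not called (edgeR adjusted p = 0.53). Of 28 integrin and matrix genes tested, 0 were called by edgeR, 2 by DESeq2 and 7 at an unadjusted p under 0.05, and the abundant Spp1 had -0.23 (edgeR adjusted p = 0.685).

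Arg1, arginase 1, which turns arginine into ornithine and is a marker of alternative activation, rose without IL-4, with 481, 362 and 326 in WT and 692, 597 and 807 in KO (log2 fold change 0.85 ± 0.15, edgeR adjusted p = 0.0342, lost without WT 3, KO 1 or KO 3). Each KO library was above each WT library. The other 11 alternative activation markers tested were not called by edgeR. Tgm2 had 1482, 1656 and 1624 in WT and 2397, 1941 and 2441 in KO (0.51 ± 0.10, edgeR adjusted p = 0.0575, DESeq2 adjusted p = 8.4e-04), Mrc1 -0.06 and Clec10a 0.26, and Pparg had 211, 152 and 211 in WT and 137, 133 and 140.2 in KO (edgeR adjusted p = 0.227), with KO wholly below WT. Among 15 growth factors of repair tested, Gdf3, a ligand of the TGF-beta family, rose, with 37.4, 35.4 and 26.9 in WT and 84.3, 83.9 and 64.4 in KO (log2 fold change 1.23 ± 0.21, edgeR adjusted p = 0.0342, lost without WT 1, WT 3, KO 1 or KO 2). Pdgfc and Hgf had log2 fold changes of -0.82 and -0.70, not called by edgeR (adjusted p = 0.101 and 0.0764) but lower by DESeq2 (adjusted p = 0.00672 and 0.0127), and Igf1 read -0.01.

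Among lipid genes, Lpl, the lipoprotein lipase that frees fatty acids from triglycerides, fell from 2502 ± 34.9 to 1767 ± 192 (log2 fold change -0.50 ± 0.09, edgeR adjusted p = 0.0425). The list of 14 cholesterol efflux and LXR target genes had no other edgeR call and a median of -0.09. Abca1 and Pltp had -0.45 and -0.39 (edgeR adjusted p = 0.215 and 0.12) with KO wholly below WT. Abcg1 had 1981, 457 and 936 in WT and 450.2, 409 and 547 in KO (edgeR adjusted p = 0.239), with WT library 1 far above the rest and WT library 2 inside the KO range. Apoe, the most abundant of the list, had a log2 fold change of 0.00029. Agpat4, an acyltransferase of phosphatidic acid synthesis, rose from 213 ± 5.38 to 327 ± 21.0 (log2 fold change 0.62 ± 0.10, edgeR adjusted p = 0.0176).

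Surface receptors called outside the interferon lists went both ways. Cd72, an inhibitory lectin-like receptor, had 745, 596 and 771 in WT and 424, 423 and 449 in KO (log2 fold change -0.70 ± 0.11, edgeR adjusted p = 0.0163) and was lower in each KO library. Cd81, a tetraspanin, had 1744, 2032 and 2035 in WT and 3094, 2550.1 and 2849 in KO (log2 fold change 0.55 ± 0.10, edgeR adjusted p = 0.0375), and Ptgir, the prostacyclin receptor, 596, 438 and 524 in WT and 999, 729 and 839 in KO (log2 fold change 0.72 ± 0.13, edgeR adjusted p = 0.0442). Both were higher in each KO library. The other 13 tetraspanins tested were not called, with Cd53 at 0.15 and Cd9 at 0.21. Of 15 paired and leukocyte immunoglobulin-like receptors, Pira2 alone was called by edgeR and 6 lay wholly above WT. Pilra had 457, 1250.5 and 755 in WT and 1600.3, 1375 and 1507 in KO (edgeR adjusted p = 0.227) and Pilrb1 90.5, 216 and 171 in WT and 306, 264 and 339 in KO (edgeR adjusted p = 0.125, DESeq2 adjusted p = 0.0041), and in both WT library 1 was the lowest. The abundant Sirpa and Lilrb4b read -0.01 and 0.01.

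The other called genes with known roles in signalling and traffic were as follows. Usf1, a bHLH-zip transcription factor, fell from 301 ± 13.5 to 205 ± 18.6 (log2 fold change -0.55 ± 0.10, edgeR adjusted p = 0.0468). It shares 26.0% of its stretches with other genes, chiefly Tstd1 and a pseudogene. Their sum with Usf1 was 315 ± 13.1 in WT and 216 ± 18.6 in KO. Fgd2, an exchange factor for Cdc42, fell from 832 ± 64.9 to 605 ± 15.3 (log2 fold change -0.46 ± 0.09, edgeR adjusted p = 0.0496), and Camk2b, a subunit of calcium/calmodulin-dependent kinase II, from 60.6 ± 9.04 to 18.8 ± 4.64 (log2 fold change -1.69 ± 0.25, edgeR adjusted p = 0.0159). Ctnnd2, a delta-catenin, fell from 295 ± 11.4 to 146 ± 33.9 (log2 fold change -1.01 ± 0.15, edgeR adjusted p = 0.0139), and Mtus2, a microtubule-associated protein, from 43.1 ± 4.25 to 13.7 ± 3.50 (log2 fold change -1.66 ± 0.27, edgeR adjusted p = 0.0225). Etl4 had a log2 fold change of -0.87 (edgeR adjusted p = 0.0363), A330040F15Rik of -1.01 (adjusted p = 0.0486), and the noncoding Gm49980 of -1.84 (adjusted p = 0.0125, with 52.0% shared with other loci).

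Higher in KO were Pals1, a scaffold of epithelial polarity, from 467 ± 33.8 to 680.4 ± 38.3 (log2 fold change 0.54 ± 0.09, edgeR adjusted p = 0.0277), and Snx6, a sorting nexin of the retromer coat, from 702 ± 28.2 to 994 ± 53.2 (log2 fold change 0.50 ± 0.08, edgeR adjusted p = 0.0249). Snx6 lies 566440 bases from Egln3 on chromosome 12. Prkar2b, a regulatory subunit of protein kinase A, showed the smallest called change, from 659 ± 8.21 to 879.7 ± 25.6 (log2 fold change 0.42 ± 0.08, edgeR adjusted p = 0.0442). Efhd2, a calcium-binding actin regulator, rose from 2925 ± 93.0 to 4607 ± 585 (log2 fold change 0.65 ± 0.10, edgeR adjusted p = 0.0163), and Mmd, a membrane protein named for monocyte to macrophage differentiation, from 531 ± 43.1 to 757 ± 51.2 (log2 fold change 0.51 ± 0.09, edgeR adjusted p = 0.0427). Lrmda had a log2 fold change of 0.94 (edgeR adjusted p = 0.0197). Rn18s-rs5, a ribosomal RNA gene, had 1094, 1119 and 1193 in WT and 679, 741 and 869 in KO (log2 fold change -0.57 ± 0.10, edgeR adjusted p = 0.0337), a remainder after depletion of ribosomal RNA, which made up 0.0429% to 0.0664% of a library's counts.

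KO library 3 stood apart in genes that respond within minutes to a stimulus. Nr4a1, a nuclear receptor of this class, had 37.4, 50.1 and 33.6 in WT and 31.6, 29.8 and 403 in KO. Dusp5, a phosphatase that turns off ERK, had 44.6, 53.1 and 54.7 in WT and 53.8, 46.0 and 453 in KO, and Junb, a subunit of AP-1, 2653, 2415 and 2628 in WT and 2490.1, 1871 and 8031 in KO. In these 3 genes the other KO libraries were within or below the WT range, and none was called (edgeR adjusted p = 0.457, 0.404 and 0.638). Over the 25 immediate early genes tested, edgeR called 0 and DESeq2 1, 7 had an unadjusted p under 0.05, and the median was 0.49 with KO library 3 and -0.12 without it. Maff had 42.2, 50.1 and 49.0 in WT and 98.0, 74.9 and 127 in KO (edgeR adjusted p = 0.0656) and Myc 25.3, 43.3 and 42.2 in WT and 67.5, 57.7 and 85.3 in KO (edgeR adjusted p = 0.175), so that KO libraries 1 and 2 were also above WT in both. Among 30 inflammatory cytokine and NF-kB pathway genes, 0 were called by edgeR, 1 by DESeq2 and 7 at an unadjusted p under 0.05. Tnf had 503, 832 and 812 in WT and 1046, 766 and 1305 in KO (edgeR adjusted p = 0.378), where KO library 2 lay inside the WT range, and Il1a 48.3, 30.5 and 37.4 in WT and 74.9, 60.4 and 76.8 in KO (edgeR adjusted p = 0.132), with no overlap. Of 25 chemokine genes, 0 were called by edgeR and 9 had an unadjusted p under 0.05. Ccr2 had -1.35 (edgeR adjusted p = 0.118) and was lower by DESeq2 (adjusted p = 0.0267), and Ppbp had 1.21 and was higher by DESeq2 (adjusted p = 0.0198).

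Much of the transcriptome showed no call. Of 70 lists with a tested member, 22 held a called gene and 48 did not, and 36 of the 65 called genes stood on no list. Of the 59 lists with at least 10 tested members, 45 had a median log2 fold change between -0.15 and 0.15, 11 over 0.15 and 3 under -0.15. A set of 17 lists of basic functions, among them the TCA cycle, nuclear-encoded respiratory complexes, cholesterol and fatty acid synthesis, proteasome, lysosome, autophagy, heat shock, unfolded protein response, p53 and BCL2 genes and cytosolic ribosomal proteins, held 495 tested members. Of these, 0 were called by edgeR and 2 by DESeq2, and the medians ran from -0.09 to 0.14. An unadjusted p under 0.05 was found in 46 of the 495, no larger a share than the 1410 of all 14089 genes. Of 77 ribosomal protein genes, 76 had positive values, with a median of 0.13. In 6 the KO libraries lay wholly above WT, a share near the 7.10% of all genes. Of the 12 genes that make or load microRNAs, 0 were called by edgeR or DESeq2, 0 had an unadjusted p under 0.05 and the median was -0.09.

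The seed of miR-210-3p pairs with ACGCACA in an mRNA, or with ACGCACAA where an A follows. Of 21708 annotated 3′ untranslated regions of the genome (GRCm39, sense strand only, overlapping 8-base matches counted among the 7-base ones), 3.35% held the 7-base match and 0.470% the 8-base one. Among tested genes with such a region, 454 held the 7-base match (4.11%), of which 3 rose and 0 fell by edgeR, and DESeq2 called 3 higher and 2 lower. The median log2 fold change was 0.0036 with the match and 0.01 in the 10595 genes without it, of which 26 rose and 24 fell. In 49 genes with the match (10.8%) the KO libraries lay wholly above WT and in 20 (4.41%) wholly below, against 7.88% and 7.54% of genes without it. Untranslated regions with a match were longer, with a median of 3127.5 bases against 1285, and the part of length in these shares was not tested. The 63 tested genes with the 8-base match had a median of -0.0019 and 1 call.

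The called genes with a match were Gsr, Mmd and Gdf3, all higher in KO. The sites are shown because they are the only matches among the called genes, with the match in capitals between a few flanking bases.
Gsr: tatacacACGCACAgaagaact
Mmd: tccattgACGCACAcccccact
Gdf3: acctcaaACGCACAAgagatca
They start at bases 139, 559 and 404 of the annotated region of Gsr (chromosome 8), Mmd (chromosome 11) and Gdf3 (chromosome 6), and Gdf3 holds the 8-base form. A match is a description of the letters and not evidence of pairing. In the paper's RT-qPCR on a separate batch, Mmd was significantly higher in KO only in M0. Gdf3 followed the trend there without reaching significance.

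Of 23 published miR-210 targets tested, 0 were called by edgeR or DESeq2, 3 had an unadjusted p under 0.05, 5 lay wholly above WT and 1 wholly below, and the median was 0.11. Iscu, the iron-sulfur cluster scaffold, had 370.4, 303 and 372 in WT and 463, 409 and 386 in KO (0.27 ± 0.11, edgeR adjusted p = 0.436), and KO was wholly above WT. Gpd1l and Bnip3 had 0.16 and 0.24 (edgeR adjusted p = 0.59 and 0.384), also without overlap, while Sdhd, a subunit of complex II, read 0.12 with overlapping groups. Tcf7l2 was the member below WT, at 204, 186 and 169 in WT and 92.8, 125 and 139 in KO (edgeR adjusted p = 0.124, DESeq2 adjusted p = 0.052). Of 10 predicted targets that the study named, 4 rose (Gsr, Txnrd1, Mmd and Gdf3) and 7 lay wholly above WT. That list was chosen on these samples, so its counts are not independent evidence of its direction. Of its uncalled members, Acss2, an acetyl-CoA synthetase, had 253, 149 and 197 in WT and 307, 299 and 293 in KO (edgeR adjusted p = 0.152), and Clcn5 and Slc9a9 read 0.09 and -0.01.

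Around the deleted locus, 43 genes within 1 Mb of Mir210 were tested, 0 were called by edgeR and 1 by DESeq2, 2 had an unadjusted p under 0.05, and the median log2 fold change was -0.05. The gene called by DESeq2 was Rplp2, a ribosomal stalk protein, with a log2 fold change of 0.68 (edgeR adjusted p = 0.185, DESeq2 adjusted p = 0.0489). Rassf7, the nearest tested gene at 2715 bases, had 55.5, 50.1 and 54.7 in WT and 36.9, 33.4 and 34.1 in KO (-0.62 ± 0.20, edgeR adjusted p = 0.265), with KO wholly below WT. Phrf1 and Hras read -0.10 and 0.09 (edgeR adjusted p = 0.786 and 0.867). Irf7 lay 41213 bases away, with 5266, 3470.3 and 4804 in WT and 3826, 3132 and 4024 in KO (edgeR adjusted p = 0.529). Within 5 Mb, 95 genes were tested and 1 was called, Cd81. The 65 called genes were spread over 21 chromosomes.

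The same genotypes after IL-4 gave 137 calls of 13980 genes tested (0.980%). The M2 libraries are other libraries of the same genotypes, so each comparison has its own controls. Of the 65 genes called in M0, 63 were tested in M2 and 29 were called there in the same direction, among them all of the 18 that were called whichever library was left out. In those 29 the median size of the fitted log2 fold change was 1.68 in M0 and 1.49 in M2, and the genes near 0 counts stayed above the M0 median at their bounds. In the other 34 it was 0.73 in M0 and 0.16 in M2, and 20 had the same sign. The 34 were picked as called in M0 and not in M2, so the smaller size in M2 follows in part from that choice. Ide (0.85 in M0 and 0.87 in M2), Slc15a2 (2.14 and 2.21), Fat3 (-1.44 and -1.25), Wdfy1 (-1.39 and -1.28) and Dynlt1b (-1.28 and -1.49) had like values in both. Rab4a had -2.06 and -1.17. Outside the 18, Cd59a, Camk2b, Tmem181b-ps, Mtus2, Gm49980, Pals1, Snx6, Mmd, Cd81, Efhd2 and Gdf3 were called in both.

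The interferon, histone and hypoxia genes were mostly among the 34. Isg15 had -0.89 in M0 and -0.14 in M2, Gbp5 -1.19 and -0.34, Iigp1c -0.60 and -0.11, H2bc15 0.84 and -0.11, H1f5 0.96 and -0.13, and Arg1 0.85 and 0.04. The M2 medians of the lists were -0.14 for type I genes, -0.13 for the GTPases, -0.16 for histones, -0.03 for hypoxia and -0.04 for redox genes. In M2, 4 histone genes were called lower and H4c17 was called higher, beside 0.980% of all genes called there in either direction.

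The difference between the genotype effects in M2 and M0 was tested as an interaction in 1 fit over all 12 libraries. edgeR gave 0 of 14825 genes with an adjusted p under 0.05 (lowest adjusted p 0.0746), although 1327 genes had an unadjusted p under 0.05, and DESeq2 gave 83. Of the 65 genes called in M0, 31 had an unadjusted interaction p under 0.05 and 16 a DESeq2 adjusted p under 0.05. Among histones the unadjusted p was under 0.05 in 39 of 54 genes, with edgeR adjusted p = 0.0951 for H1f5, H2bc15 and H3c1. The gene with the smallest interaction p was Prokr1, a prokineticin receptor, at 0.59 in M0 and -0.23 in M2.

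**Figure D5:**
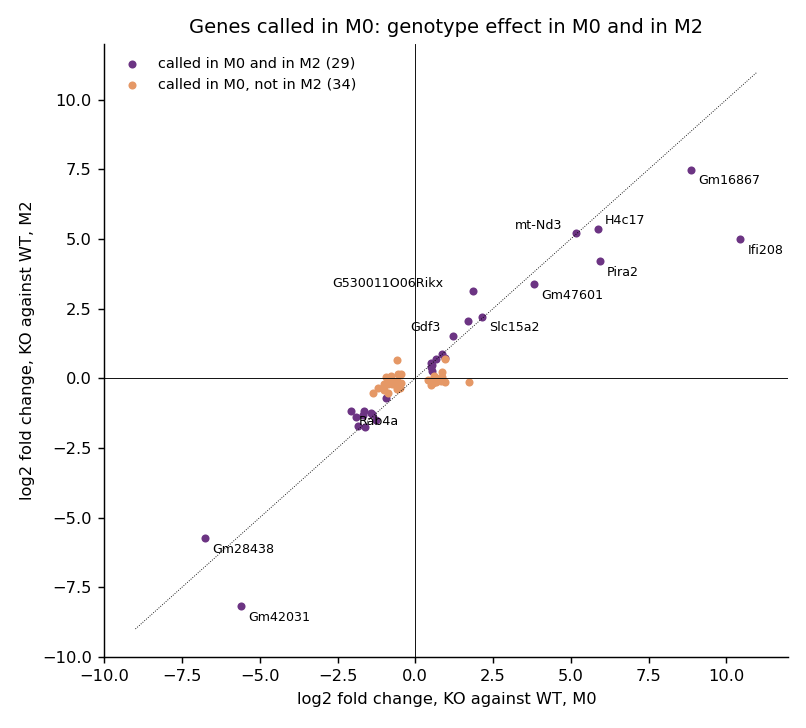
Log2 fold change of KO against WT in M2 (y axis) against the same in M0 (x axis) for the 63 genes called in M0 and tested in M2, with the 29 called in both coloured apart from the other 34. The 29 have the same sign in both states, and the position of Ifi208 and other genes near 0 counts in 1 group depends on the prior count. The other 34 have a median size of 0.73 in M0 and 0.16 in M2, a gap that follows in part from how they were picked.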

How the data were processed

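Bulk RNA sequencing of 12 libraries was analysed, 3 for each of WT M0, KO M0, WT M2 and KO M2, and the 6 M0 libraries carry the comparison. The deposited values are raw read counts per Ensembl gene. Per the methods and the submitters' processing notes, the authors depleted ribosomal RNA, sequenced stranded read pairs, trimmed with Trimmomatic, removed duplicate reads with Picard, aligned to GRCm39 with STAR and counted by strand with featureCounts. Removing duplicates can lower the counts of short, abundant transcripts, and reads from near-identical genes are assigned or dropped by the aligner and counter. The authors' normalised tables, which hold the same counts divided by size factors, and the 2 tables of counts arranged for IL-4 against M0 were not used.

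Of 56941 gene identifiers, 56323 matched a symbol in the annotation, 618 did not, and 152 symbols stood on more than 1 identifier. Counts were filtered with filterByExpr, scaled by TMM and tested with edgeR 4.0.16 (limma 3.58.1, R 4.3.3) by its quasi-likelihood test, 2-sided, with Benjamini-Hochberg adjustment over all genes tested, an adjusted p under 0.05 and a change over 1.2-fold. Values after ± are standard errors beside a log2 fold change and SDs beside a mean. Normalised counts are raw counts scaled to the mean TMM library. DESeq2 1.42.0, the test that the study used, was an alternative, as were RLE scaling, library totals, no filter on low counts, a mean of at least 20 counts, a fit over all 12 libraries, a replicate block and each library left out. The steps across genes were tested on simulated data. Tables and figures used Python 3.11.15, the R package data.table (version 1.17.8), pandas 2.3.3 and matplotlib 3.10.9.

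Gene lists (71, with 1758 members of which 1756 matched) and members were chosen with earlier results of these data known. The text names Mir210, all called genes, up to 5 members of a list with the smallest p and the 3 most abundant, genes within 500 kb of Mir210 and the 5 genes with the smallest interaction p. A few genes that this rule names are not reported here. Gm64463, Slc25a37 and the other near copies were named because of shared sequence. Library totals ran from 7930525 to 10167695 counts, and a count of 0 allows up to 3 counts in a library. Counting error is only part of the spread, as replicates differed by 2.90 to 9.85 times what counting allows.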

Additional observations from a re-analysis of the deposited data

Results flagged for a closer look

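Usf1, a transcription factor of the bHLH-zip class, had genotype effects of opposite sign in the 2 states, and every library moved with its group. In M0 its normalised counts were 313, 286 and 304 in WT and 187, 224 and 206 in KO, with a log2 fold change of -0.55 (edgeR adjusted p = 0.0468), and each KO library was below each WT library. In M2 each KO library was above each WT library, with a log2 fold change of 0.16 (edgeR adjusted p = 0.615). The difference of the M2 and M0 effects was 0.71 on the log2 scale. Tested as an interaction over all 12 libraries, it did not pass the adjusted threshold in edgeR (adjusted p = 0.0951) and did in DESeq2 (adjusted p = 0.0198). The call in M0 was lost without WT 1, WT 3, KO 1 or KO 3. Usf1 shares 26.0% of its 50-base stretches with other genes.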

How the results depend on the processing

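The M0 count of 65 called genes was 65 with RLE scaling, 64 with library totals only, 69 with a mean of at least 20 counts and 65 with no limit on the fold change. It was 207 with DESeq2, 248 with all 12 libraries in 1 fit, 532 with no filter on low counts and 27 with a change over 2-fold, and each of the first 3 of these sets held all 65. Leaving out 1 library gave 20 to 302. Deviations of same-numbered libraries correlated at 0.12, 0.37 and 0.02, and those of differently numbered libraries at -0.30 to 0.25. With 3 libraries a group, these values cannot settle whether the replicate numbers pair the libraries. The replicate block gave 284 calls, all 65 among them. The M2 count of 137 was 130 with DESeq2, 360 with no filter and 53 to 215 without 1 library. The interaction count of 0 was 83 with DESeq2, 341 with no filter and 0 to 77 without 1 library. The causes were not tested. No called gene changed sign under any alternative run, and with library totals 3 of the 65 missed the call.

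The limits are 3 libraries a group, a batch label of its own for each group, and counts of near-identical genes that cannot be separated. A gene with few counts needs a large change to be called: the median standard error was 0.31 among the 3523 genes of lowest level and 0.09 among the 3522 of highest level.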
